A study of Homo sapiens with 8 samples.

Results

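The genes of glycolysis and of the response to low oxygen were followed in 2 esophageal squamous cell carcinoma (ESCC) lines, in libraries labelled as knockdown of LHX2, a LIM-homeobox transcription factor. The set was taken by symbol from a list drawn up with earlier results of these data known. It holds 40 genes, out of the 26008 genes in the table of KYSE30 and the 25561 in that of KYSE510. Of these, 24 serve glycolysis, from glucose uptake to the fate of pyruvate and lactate, and 16 are other genes of the hypoxia response. KYSE30 held rows for 38 of them, since CA9 and CA12 were not analysed here in that line, and all 38 were tested. KYSE510 held all 40, of which 39 were tested and SLC2A3 lay below the level at which the authors' table gives an adjusted p.

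KYSE30 and KYSE510 are established human ESCC lines. In each line, cells given a hairpin RNA that targets LHX2 (shLHX2) were compared with cells given a control hairpin (shNC), with 2 libraries per group, 8 in all. The paper describes a lentivirus made from the pSIH-H1 vector for the LHX2 hairpins, and drug selection of the infected cells. It does not name the vector of the control hairpin. No library is labelled as grown at low oxygen. The shLHX2 cells are selected stable pools. The paper lists 2 hairpins against LHX2, and the sources used here do not say which of them served a line or a library. Nothing in the labels says that the libraries of a group came from separate cultures, so the p-values measure only the spread between these libraries, which may be technical.

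Glycolysis splits glucose into pyruvate in the cytosol, and cells short of oxygen turn the pyruvate into lactate and export it. Many of its enzymes, together with the glucose transporter SLC2A1, are switched on by the hypoxia-inducible factors (HIFs), whose alpha subunits HIF1A and EPAS1 pair with ARNT and bind DNA at the core letters ACGTG or GCGTG. While oxygen is present, the prolyl hydroxylases EGLN1, EGLN2 and EGLN3 mark the alpha subunits for destruction, and the gene of EGLN3 is itself a strong HIF target. Much of HIF control acts on the protein, which RNA-seq does not read.

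The authors' deposited tables give, per gene, the mean normalized count over a line's libraries and the log2 fold change of shLHX2 over shNC with its standard error (SE), and a gene is called here at an adjusted p under 0.05 with no limit on its fold. Reads per library were worked back from these values, and the libraries of a group are named a and b because their replicate numbers could not be assigned. Over the solved genes only, they came to 16639624 to 18820912 reads per library in KYSE30 and 13618211 to 17855337 in KYSE510. LHX2 itself had 32 and 50 reads in shLHX2 of KYSE30 against 99 and 112 in shNC, a log2 fold change of -1.45 (SE 0.34, adjusted p = 0.000123). In KYSE510 it had 13 and 1 reads in shLHX2 against 14 and 8 in shNC, a change of -0.97 (SE 1.16) that was not detectable at this depth. Its Wald test in the authors' deposited DESeq2 table has a p of 0.407. The sequencing does not show the knockdown in KYSE510, so that the group is called by its label there. The paper examined the efficiency of its knockdown in both lines by qRT-PCR and Western blotting, which are not used here. Of the squamous and general epithelial markers TP63, SOX2 and EPCAM were present in both lines. KRT5, a basal keratin, had a mean of 12.9 in KYSE30 against 30946 in KYSE510. The leukocyte marker PTPRC (6.01 and 1.83), the endothelial PECAM1 (0.50 and 3.66) and the fibroblast COL1A2 (0.26 and 1.14) lay near 0, whereas CD68 (99.1 and 379), CDH5 (157 and 239) and COL1A1 (268 and 739) were detected. Of the 12 markers of other cell types 4 were tested in KYSE30 and 3 fell, their summed normalized reads being 375 and 381 in shLHX2 against 691 and 706 in shNC, and of 3 tested in KYSE510 1 fell, with sums of 1203 and 1243 against 1431 and 1549. Of the 8 squamous and general epithelial markers 5 fell in KYSE30, with sums of 9186 and 8968 against 15771 and 15560. In KYSE510 4 fell and 1 rose, with sums over 7 of them of 14963 and 14815 against 18724 and 18494. Of all tested genes 15.7% fell in KYSE30, and 10.8% fell and 7.89% rose in KYSE510. The part of these shifts in the results that follow was not tested.

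In KYSE30 the members both rose and fell in shLHX2, whereas in KYSE510 the falls outnumbered the rises. In KYSE30, 12 of the 38 tested members rose and 8 fell, which is 31.6% and 21.1% of them, while 13.9% of all 15923 tested genes rose and 15.7% fell. In KYSE510, 5 of the 39 tested members rose and 18 fell, which is 12.8% and 46.2%, against 7.89% and 10.8% of all 12676 tested genes. The members are mostly well expressed, and calls are more frequent at higher levels. Among genes with a mean of at least 100, 19.4% rose and 21.2% fell in KYSE30, and 9.38% rose and 12.7% fell in KYSE510. Of the hypoxia genes outside glycolysis, 12 of 16 fell and 0 rose in KYSE510, with 0 rising at an unadjusted p under 0.05 or by limma, whereas 5 of 14 fell and 3 rose in KYSE30. Of the glycolytic genes, 9 of 24 rose and 3 fell in KYSE30, and 5 of 23 rose and 6 fell in KYSE510.

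Most of these changes were small. The median log2 fold change of the glycolytic members was 0.02 in KYSE30 and -0.06 in KYSE510, while that of the other hypoxia members was -0.07 in KYSE30 and -0.40 in KYSE510, beside a median over all tested genes of 0.0035 and -0.0017. Only 1 member rose by at least 1.5-fold in KYSE30 (ALDOC) and 1 fell by as much (NDRG1), where 3.17% of all genes rose and 4.72% fell by that rule. In KYSE510, 4 members fell by at least 1.5-fold (SLC2A1, CA9, CA12 and NDRG1), and the largest rise was the 1.3-fold of PGK1, where 1.4% of all genes rose and 2.24% fell by that rule. The 2 groups of libraries did not overlap for 30 of the 38 members in KYSE30 and for 29 of the 35 members with solved reads in KYSE510 (SLC2A3 included), beside 67.9% and 67.4% of all tested genes, and no called member with solved reads had overlapping groups. The direction of small changes depends on the scale. The median of 11 common reference genes (such as ACTB, TBP and PPIA) itself rose by 0.12 in KYSE30 and 0.05 in KYSE510, and relative to it the calls become 9 higher and 18 lower in KYSE30 and 2 higher and 20 lower in KYSE510. Relative to it the glycolytic median became -0.11 in both lines, so that its sign in KYSE30 turns.

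**Figure D1:**
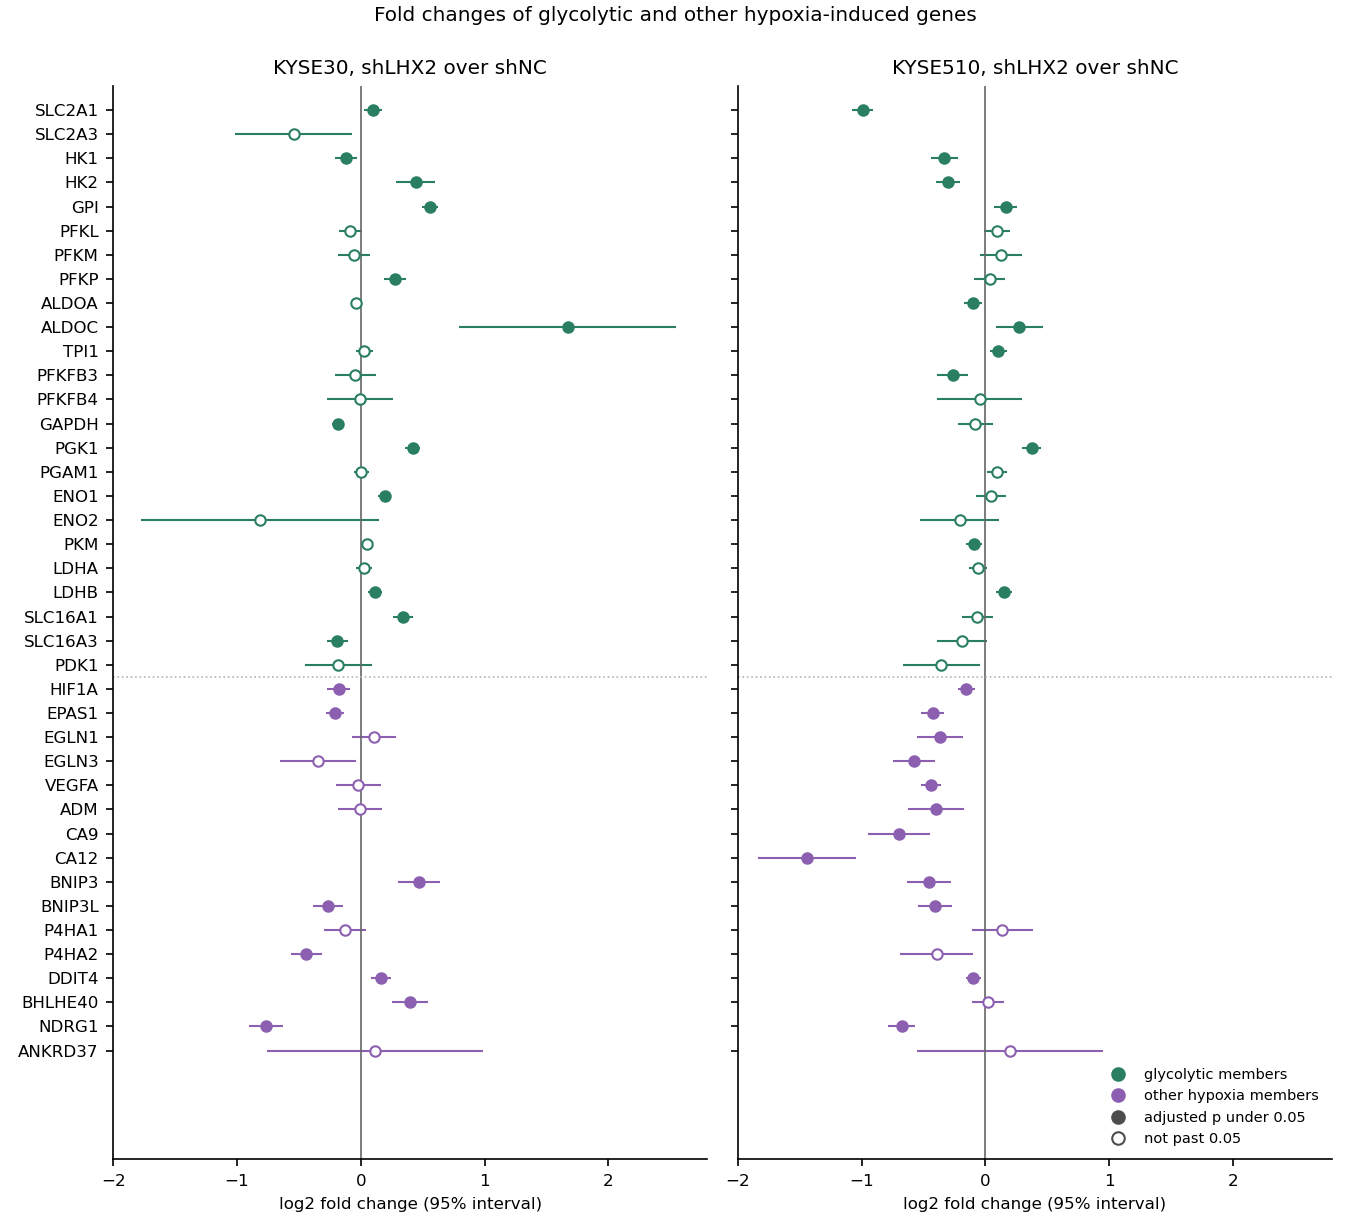
Log2 fold change of shLHX2 over shNC (horizontal axis, with its 95% interval) for each member, KYSE30 on the left and KYSE510 on the right. Filled points have an adjusted p under 0.05, the dotted line parts the glycolytic members from the other hypoxia members, and in KYSE510 the 12 called members below that line all lie left of 0.

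Promoter sequence is shown for 4 members whose RNA behaved differently: SLC2A1 and CA9, which fell in KYSE510, PGK1, which rose in both lines, and BNIP3, which went opposite ways. The windows are the 250 bases before the RefSeq transcription start on GRCh38.p14, 5′ to 3′ on the strand of the gene, at chr1:42958869-42959118 (SLC2A1, minus strand), chrX:78103998-78104247 (PGK1, plus strand), chr9:35673678-35673927 (CA9, plus strand) and chr10:131981924-131982173 (BNIP3, minus strand). The windows of SLC2A1 and PGK1 lie within the span of the gene in GENCODE 29, and those of CA9 and BNIP3 overlap it, since that annotation holds starts further upstream. Capitals mark the HIF core letters ACGTG, or CACGT where they lie on the other strand.
SLC2A1: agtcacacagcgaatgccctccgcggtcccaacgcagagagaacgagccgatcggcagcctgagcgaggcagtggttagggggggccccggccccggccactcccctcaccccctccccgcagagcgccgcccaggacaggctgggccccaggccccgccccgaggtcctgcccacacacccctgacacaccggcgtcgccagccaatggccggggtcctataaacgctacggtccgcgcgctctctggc
PGK1: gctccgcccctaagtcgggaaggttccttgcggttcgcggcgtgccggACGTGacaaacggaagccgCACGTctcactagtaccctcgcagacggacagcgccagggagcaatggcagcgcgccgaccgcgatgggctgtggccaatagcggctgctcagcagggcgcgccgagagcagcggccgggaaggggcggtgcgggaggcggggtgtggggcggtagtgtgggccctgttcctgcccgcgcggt
CA9: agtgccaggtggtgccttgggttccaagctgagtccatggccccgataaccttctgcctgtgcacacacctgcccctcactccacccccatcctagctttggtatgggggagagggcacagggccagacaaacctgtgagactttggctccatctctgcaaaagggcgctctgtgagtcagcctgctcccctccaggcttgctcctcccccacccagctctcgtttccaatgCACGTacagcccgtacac
BNIP3: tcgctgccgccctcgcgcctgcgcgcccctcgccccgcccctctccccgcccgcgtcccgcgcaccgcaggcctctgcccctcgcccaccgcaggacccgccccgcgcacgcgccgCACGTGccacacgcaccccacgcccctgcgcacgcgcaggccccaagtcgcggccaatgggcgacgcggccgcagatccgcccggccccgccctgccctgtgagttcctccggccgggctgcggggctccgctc
The window of PGK1 holds 2 matches, at -202 and -183 from the start. That of CA9 holds 1, at -18 on the other strand. In BNIP3 the 2 matches, at -134 and -133, overlap in 1 palindrome, CACGTG, the E-box that other basic helix-loop-helix proteins read as well. The window of SLC2A1 holds 0 matches. The other core, GCGTG, left in lower case here, has 4 matches in the window of BNIP3 and 1 in that of PGK1, and 0 in those of SLC2A1 and CA9.

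RefSeq windows were found for 35 of the 40 members, 62 windows in all since some genes have several starts, and windows of 1 gene can overlap. SLC2A3, SLC16A1, VEGFA, BNIP3L and NDRG1 were not matched. ACGTG, searched on both strands, was present in 24 of the 62 windows (38.7%), against 18.5% of all 35116 windows of the same length. Of the windows of glycolytic members 35.4% held it, and of those of the other hypoxia members 50.0%. GCGTG was present in 32.3% of the members' windows and in 32.2% of all windows. The palindrome CACGTG, which contains ACGTG, was present in 14.5% and 6.34%. A match describes these letters only, and these counts say nothing of whether a factor sits there.

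At the point of glucose entry the lines parted, with a sharp fall of the transporter SLC2A1 in KYSE510 and a slight rise in KYSE30. SLC2A1 encodes GLUT1, the main glucose transporter of proliferating epithelial cells, and lies at chr1:42925375-42959176 on hg38. In KYSE510 it had 6468 and 6418 normalized reads in shLHX2 against 13203 and 12419 in shNC. Its RNA fell to 50.3% of the control level, a log2 fold change of -0.99 (SE 0.04, adjusted p = 3.76e-118), and both shLHX2 libraries lay far below both controls. In KYSE30 the same gene had 5166 and 5071 against 4809 and 4769, a rise of 0.10 (SE 0.04, adjusted p = 0.0322). This small rise turns to -0.03 relative to the reference genes. It also misses the threshold when the p-values are adjusted over every gene with a p (0.0524). By limma without shLHX2 a, shLHX2 b or shNC b its value was 0.08, 0.11 and 0.09. SLC2A3, the high-affinity transporter GLUT3, had 90.9 and 82.4 reads in shLHX2 against 117 and 135 in shNC of KYSE30 (log2 fold change -0.54, 95% interval -1.02 to -0.07, adjusted p = 0.0769). It was called lower there by limma (adjusted p = 0.0236) and relative to the reference genes (0.0198). Its mean in KYSE510 was 1.73, below the level tested there.

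The hexokinases trap glucose in the cell as glucose 6-phosphate. HK2 (chr2:74833981-74893359), the inducible form that many tumors use, moved in opposite directions. In KYSE30 it had 1081 and 1069.9 normalized reads in shLHX2 against 819.7 and 761 in shNC, and in KYSE510 5121 and 4995 against 6427 and 6033. That is a rise of 0.44 (SE 0.08, adjusted p = 3.98e-07) in the former and a change of -0.30 (SE 0.05, adjusted p = 6.22e-08) in the latter, with no overlap of the groups in either line. HK1, the form of most tissues, fell in both lines, by 0.12 (SE 0.05, adjusted p = 0.0389) in KYSE30 and by 0.33 (SE 0.06, adjusted p = 9.76e-08) in KYSE510. Its call in KYSE30 is lost when p-values are adjusted over every gene with a p (0.0632). By limma without shLHX2 a, shLHX2 b or shNC a its value there was -0.11, -0.12 and -0.11.

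GPI, the isomerase that turns glucose 6-phosphate into fructose 6-phosphate (chr19:34359480-34402413), had the most significant rise among the members in KYSE30. It had 8503 and 8397 normalized reads in shLHX2 against 5658 and 5790.0 in shNC there, a 1.48-fold rise (log2 0.56, SE 0.03, adjusted p = 2.33e-63). In KYSE510 it had 6997 and 6825 against 6368 and 5968, a rise of 0.16 (SE 0.05, adjusted p = 0.00535). The smaller rise loses its call relative to the reference genes (adjusted p = 0.0747) and was 0.15 by limma without shLHX2 a. Of the phosphofructokinase subunits, which set the committed step, PFKP rose by 0.28 in KYSE30 (SE 0.04, adjusted p = 4.72e-09) and had a value of 0.03 in KYSE510 (SE 0.06, adjusted p = 0.804). PFKL (-0.08 and 0.09) and PFKM (-0.06 and 0.13) did not pass the test in either line, and their 95% intervals stayed between -0.19 and 0.29. PFKL moved to -0.13 in KYSE30 by limma without shLHX2 a, and to 0.12 in KYSE510 by limma without shNC a. Relative to the reference genes PFKL (adjusted p = 9.88e-05) and PFKM (0.0212) were called lower in KYSE30.

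The aldolases cut fructose 1,6-bisphosphate into triose phosphates. ALDOC (chr17:28573115-28577264), the form best known from brain, was low in KYSE30, with 49.2 and 62.3 normalized reads in shLHX2 against 18 and 16.9 in shNC. It rose 3.18-fold there (log2 1.67, SE 0.45, adjusted p = 0.0011). In KYSE510, where its mean was 1693, it had 1767 and 1943 against 1674 and 1388, a rise of 0.28 (SE 0.10, adjusted p = 0.0269) that moves to 0.15 by limma without shNC b and loses its call relative to the reference genes (adjusted p = 0.0814) or with p-values adjusted over every gene with a p (0.0538). ALDOA, the main aldolase with means of 22246 and 27609, had values of -0.04 in KYSE30 (adjusted p = 0.294) and -0.10 in KYSE510 (SE 0.04, adjusted p = 0.0483). The latter call is lost after subtraction of the median of all tested genes (adjusted p = 0.0531) or with the adjustment over every gene (0.0963), and ALDOA shares 1657 exon bases with AC093512.2 on the same strand, so that its counts are uncertain. Relative to the reference genes ALDOA was called lower in KYSE30 (-0.16, adjusted p = 3.38e-10). TPI1, triose phosphate isomerase, had a value of 0.03 in KYSE30 (adjusted p = 0.601) and rose by 0.10 in KYSE510 (SE 0.03, adjusted p = 0.017). That rise loses its call relative to the reference genes (adjusted p = 0.299). By limma it was 0.10 without shLHX2 a and 0.11 without shLHX2 b. The KYSE30 value of TPI1 turns to -0.10 relative to the reference genes and was called lower on that scale (adjusted p = 0.0181).

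PFKFB3 and PFKFB4 make and remove fructose 2,6-bisphosphate, the strongest activator of phosphofructokinase. PFKFB3 fell in KYSE510, with 2505 and 2623 normalized reads in shLHX2 against 3089.9 and 3063 in shNC (log2 fold change -0.26, SE 0.06, adjusted p = 0.000426). In KYSE30 its value was -0.04 with a 95% interval of -0.21 to 0.12. PFKFB4 had values of -0.01 and -0.05 and overlapping groups in both lines.

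In lower glycolysis PGK1 was the member that rose in both lines. PGK1 makes the first ATP of the pathway and lies at chrX:77910739-78129296. It had 8456 and 8429 normalized reads in shLHX2 against 6274 and 6353 in shNC of KYSE30, and 13129 and 12821 against 10243 and 9794 in KYSE510. The rises were 0.42 (SE 0.03, adjusted p = 6.39e-39) and 0.37 (SE 0.04, adjusted p = 4.8e-20), or 1.34-fold and 1.3-fold, and every shLHX2 library lay above every control. PGK1 shares 97 exon bases with ATP7A on the same strand. GAPDH, the enzyme just upstream and often a loading control, fell in KYSE30 from 73910.5 and 73762 to 63831 and 65802 (log2 fold change -0.19, SE 0.02, adjusted p = 1.21e-13), and had a value of -0.08 in KYSE510 (95% interval -0.22 to 0.06, adjusted p = 0.52). ENO1, the main enolase, rose in KYSE30 by 0.19 (SE 0.03, adjusted p = 2.04e-12) and had a value of 0.04 in KYSE510 (adjusted p = 0.725). PKM, pyruvate kinase, had a value of 0.05 in KYSE30 (adjusted p = 0.125) and fell by 0.09 in KYSE510 (SE 0.03, adjusted p = 0.0296). Relative to the reference genes its KYSE30 value turns to -0.08 and was called lower (adjusted p = 0.00258). The PKM call in KYSE510 is lost when p-values are adjusted over every gene with a p (0.0592). PGAM1 (0.00 and 0.09) and ENO2, the neuronal enolase (-0.82, SE 0.49, and -0.21, SE 0.16), did not pass the test in either line. The KYSE30 value of PGAM1 turns to -0.12 relative to the reference genes and was called lower on that scale (adjusted p = 0.000278). In KYSE510 limma called PGAM1 higher (adjusted p = 0.0332), and without shNC b it gave ENO2 a value of -0.35. The annotation lists 62 named pseudogenes of GAPDH, 13 of PGAM1, 5 of PKM and 4 each of ENO1 and TPI1, and how the authors counted reads shared with such copies is not stated in the sources.

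The lactate carriers moved in opposite directions in KYSE30, and the dehydrogenase subunits changed little or not detectably. SLC16A1 (MCT1), a lactate carrier, rose there from 3704 and 3579.9 normalized reads in shNC to 4557 and 4671 in shLHX2 (log2 fold change 0.34, SE 0.04, adjusted p = 4.87e-15). SLC16A3 (MCT4), the carrier typical of lactate-exporting cells, fell there from 10889 and 10672 to 9863 and 9045 (-0.19, SE 0.04, adjusted p = 6.92e-05). In KYSE510 the values were -0.07 (95% interval -0.19 to 0.06) for SLC16A1 and -0.19 (-0.39 to 0.01) for SLC16A3. Limma called SLC16A3 lower there (adjusted p = 0.0129), and without shNC a it gave SLC16A1 a value of -0.13. LDHB, the lactate dehydrogenase subunit favoring pyruvate, rose in both lines, by 0.12 (SE 0.03, adjusted p = 0.000412) and 0.15 (SE 0.03, adjusted p = 0.000129). The KYSE30 rise of LDHB turns to -0.01 relative to the reference genes, and the KYSE510 rise was 0.14 by limma without shLHX2 b. LDHA, the subunit favoring lactate, had values of 0.03 and -0.06 and passed the test in neither line. Its KYSE30 value turns to -0.10 relative to the reference genes and was called lower on that scale (adjusted p = 0.0118). In KYSE510 LDHA was called lower relative to the reference genes (adjusted p = 0.0144), and its value was -0.09 by limma without shNC b. PDK1, the kinase that closes pyruvate dehydrogenase, had values of -0.18 (95% interval -0.45 to 0.09) and -0.35 (-0.67 to -0.04, adjusted p = 0.109), the latter called by limma (adjusted p = 0.000858). SLC16A3 shares 482 exon bases with CSNK1D on the opposite strand, and PFKM shares 628 with SENP1, and the sources do not state if strand was used in counting.

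**Figure D2:**
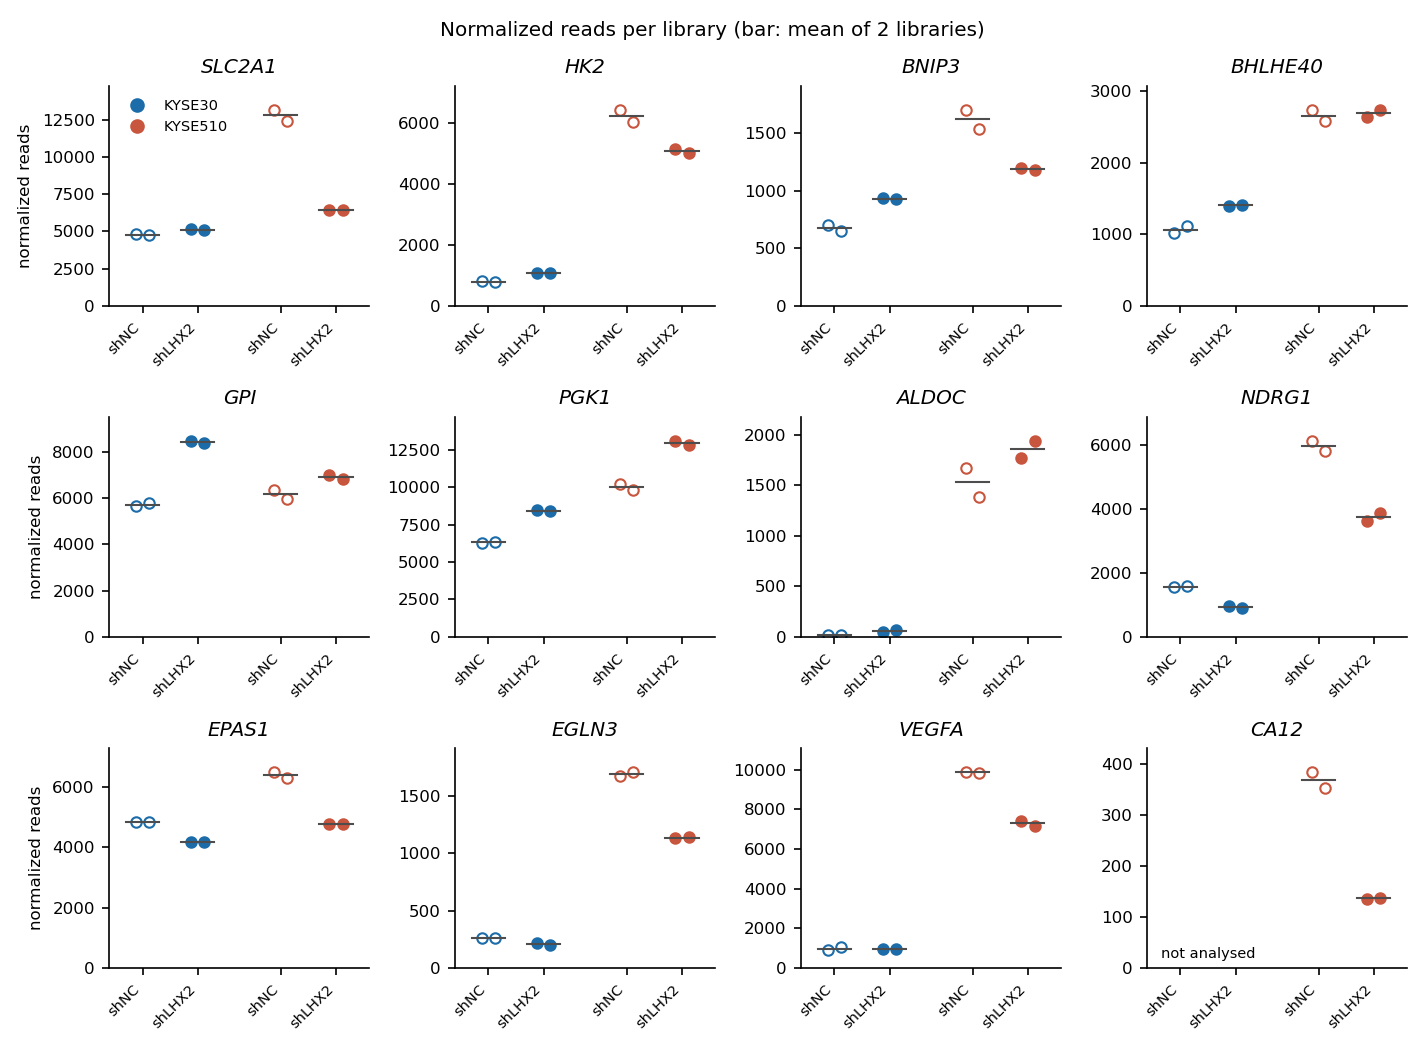
Normalized reads per library (vertical axis, reads divided by the size factor of the library) for 12 members, with shNC as open and shLHX2 as filled points, KYSE30 in blue and KYSE510 in red, and a bar at the mean of the 2 libraries. In KYSE510 the shLHX2 libraries of SLC2A1 lie at 6468 and 6418 against 13203 and 12419, while both shLHX2 libraries of PGK1 lie above both shNC libraries in both lines.

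All 4 oxygen-sensing members fell in KYSE510. EPAS1, the HIF-2 alpha subunit, had 4763 and 4787 normalized reads in shLHX2 against 6519 and 6308 in shNC there, and 4167 and 4193 against 4840.3 and 4841 in KYSE30. It fell by 0.43 (SE 0.05, adjusted p = 2.73e-17) in KYSE510 and by 0.21 (SE 0.04, adjusted p = 1.9e-07) in KYSE30. HIF1A, the HIF-1 alpha subunit, had 17441 and 17179 against 18816 and 19707 in KYSE510, and 3828 and 3678 against 4111 and 4386 in KYSE30. It fell in both, by 0.15 (SE 0.03, adjusted p = 0.0001) in KYSE510 and by 0.18 (SE 0.05, adjusted p = 0.00103) in KYSE30. EGLN3, the HIF-induced hydroxylase, had 1132 and 1144 against 1674 and 1716 in KYSE510, a change of -0.58 (SE 0.09, adjusted p = 7.46e-10), and in KYSE30 a value of -0.35 (95% interval -0.65 to -0.04, adjusted p = 0.083). EGLN3 was called lower in KYSE30 by limma (adjusted p = 0.0247) and relative to the reference genes (0.01). EGLN1, the main hydroxylase of HIF1A, fell in KYSE510 from 1333 and 1419 to 1045 and 1091 (-0.37, SE 0.09, adjusted p = 0.00105), with a value of 0.10 (95% interval -0.07 to 0.28) in KYSE30.

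The secreted factors and the carbonic anhydrases all fell in KYSE510. CA12 and CA9 are membrane carbonic anhydrases that let acid-producing cells hold their internal pH, and CA9 is among the most oxygen-dependent genes known. CA12 (chr15:63321378-63382161) had 134 and 138 normalized reads in shLHX2 against 385 and 353 in shNC, a fall to 36.8% of control (log2 fold change -1.44, SE 0.20, adjusted p = 6.78e-11), the strongest among the members in that line. CA9 (chr9:35673856-35681159) had 515 and 546 against 918 and 798, a fall to 61.8% (-0.69, SE 0.13, adjusted p = 1.17e-06), though it shares 643 exon bases with ARHGEF39 on the opposite strand. VEGFA, the main growth factor of blood vessels, fell from 9910.2 and 9834 to 7391 and 7183 (-0.44, SE 0.04, adjusted p = 3.62e-25). ADM, the vasodilating peptide adrenomedullin, fell from 909 and 874 to 653 and 699 (-0.40, SE 0.11, adjusted p = 0.00442). In KYSE30 neither passed the test, with values of -0.02 (95% interval -0.20 to 0.16) for VEGFA and -0.01 (-0.18 to 0.17) for ADM, and their groups overlapped there. Since these are bulk libraries, fewer cells of a kind and less RNA per cell cannot be told apart.

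BNIP3 and BNIP3L mark mitochondria for removal by autophagy and moved apart in KYSE30. BNIP3 (chr10:131966455-131982013) had 938 and 927 normalized reads in shLHX2 of KYSE30 against 700.5 and 647 in shNC, but 1198 and 1177 against 1708 and 1541 in KYSE510. It rose by 0.47 (SE 0.09, adjusted p = 7.21e-07) in the former and fell by 0.45 (SE 0.09, adjusted p = 1.1e-05) in the latter. The annotation lists 39 named pseudogenes of BNIP3, which makes its counts uncertain in both lines. BNIP3L had 1531 and 1464 against 1793 and 1806 in KYSE30, and 1838 and 1839 against 2412 and 2459 in KYSE510. It fell in both lines, by 0.26 (SE 0.06, adjusted p = 8.59e-05) and 0.41 (SE 0.07, adjusted p = 2.44e-07). The collagen prolyl hydroxylase subunit P4HA2 fell in KYSE30 from 1547 and 1593 to 1142 and 1174 (-0.44, SE 0.07, adjusted p = 3.27e-10), and stood just outside the threshold in KYSE510 (-0.39, SE 0.15, adjusted p = 0.0505), where limma called it (adjusted p = 0.000189). Its paralog P4HA1 had values of -0.13 and 0.14 and passed in neither line, though relative to the reference genes it was called lower in KYSE30 (adjusted p = 0.0115).

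NDRG1, a stress-induced gene used as a marker of prolonged hypoxia, fell in both lines by a like amount. It had 944 and 894 normalized reads in shLHX2 against 1557 and 1569.6 in shNC of KYSE30, and 3619 and 3864 against 6130.5 and 5812 in KYSE510. These are falls to 58.8% (-0.77, SE 0.07, adjusted p = 1.96e-26) and 62.6% of control (-0.68, SE 0.05, adjusted p = 1.7e-32). DDIT4, an inhibitor of mTORC1 signaling, rose by 0.16 in KYSE30 (SE 0.04, adjusted p = 0.000496), a call lost relative to the reference genes (adjusted p = 0.547), and fell by 0.10 in KYSE510 (SE 0.03, adjusted p = 0.0183). BHLHE40, a transcriptional repressor, rose in KYSE30 from 1016 and 1117 to 1394 and 1414 (0.40, SE 0.07, adjusted p = 7.59e-07) and had a value of 0.02 in KYSE510 (95% interval -0.11 to 0.15). ANKRD37, an ankyrin-repeat gene induced by HIF, had means of only 33.9 and 66.5, values of 0.12 (SE 0.45) and 0.20 (SE 0.38), and 909 exon bases shared with UFSP2 on the opposite strand.

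The response of the 2 lines was then compared gene by gene, as the difference of their log2 fold changes over the root of the summed squared errors, with Benjamini-Hochberg adjustment over the 12311 genes tested in both. Of the 37 members tested in both lines, 14 differed, and in all 14 the fold change was lower in KYSE510, where 5.92% of all genes were lower and 5.95% higher. At an unadjusted p under 0.05, 17 members were lower and 1 was higher (PFKL). The 14 are 8 of 23 glycolytic members and 6 of 14 others. SLC2A1 differed most clearly, by -1.09 (SE 0.06, adjusted p = 1.12e-80). HK2 followed with -0.74 (SE 0.09, adjusted p = 4.32e-13) and BNIP3 with -0.92 (SE 0.13, adjusted p = 1.75e-11). ALDOC had the greatest difference in size, -1.40 (SE 0.46, adjusted p = 0.0238), at a mean of 36.6 in KYSE30. For SLC2A1, HK2, BNIP3 and DDIT4 the calls themselves went up in KYSE30 and down in KYSE510, beside which 1.17% of all genes were called in opposite directions. The KYSE30 calls of SLC2A1 and DDIT4 are lost relative to the reference genes (adjusted p of 0.609 and 0.547).

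Differences from -0.47 to -0.38 were found for EGLN1, VEGFA, SLC16A1, GPI and BHLHE40, and from -0.26 to -0.14 for DDIT4, PFKP, HK1, EPAS1 and PKM. Relative to the reference genes of each line HK1, PFKP, EPAS1 and PKM no longer differed, and PFKL, TPI1 and PGAM1 stood higher in KYSE510, which leaves 10 members lower and 3 higher, where 3.72% of all genes were lower and 9.71% higher. Calls in 1 direction were shared by both lines for 5 members that fell (HK1, HIF1A, EPAS1, BNIP3L and NDRG1) and 4 that rose (GPI, ALDOC, PGK1 and LDHB). The share of all genes called in 1 direction in both lines was not computed, so these counts have no background beside them. For HK1, GPI, ALDOC and LDHB the call in at least 1 line is lost under some alternatives, as given above. The differences of NDRG1 (0.09, SE 0.09), HIF1A (0.02, SE 0.06), LDHB (0.03, SE 0.04) and PGK1 (-0.05, SE 0.05) did not pass the test (adjusted p from 0.634 to 0.883).

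**Figure D3:**
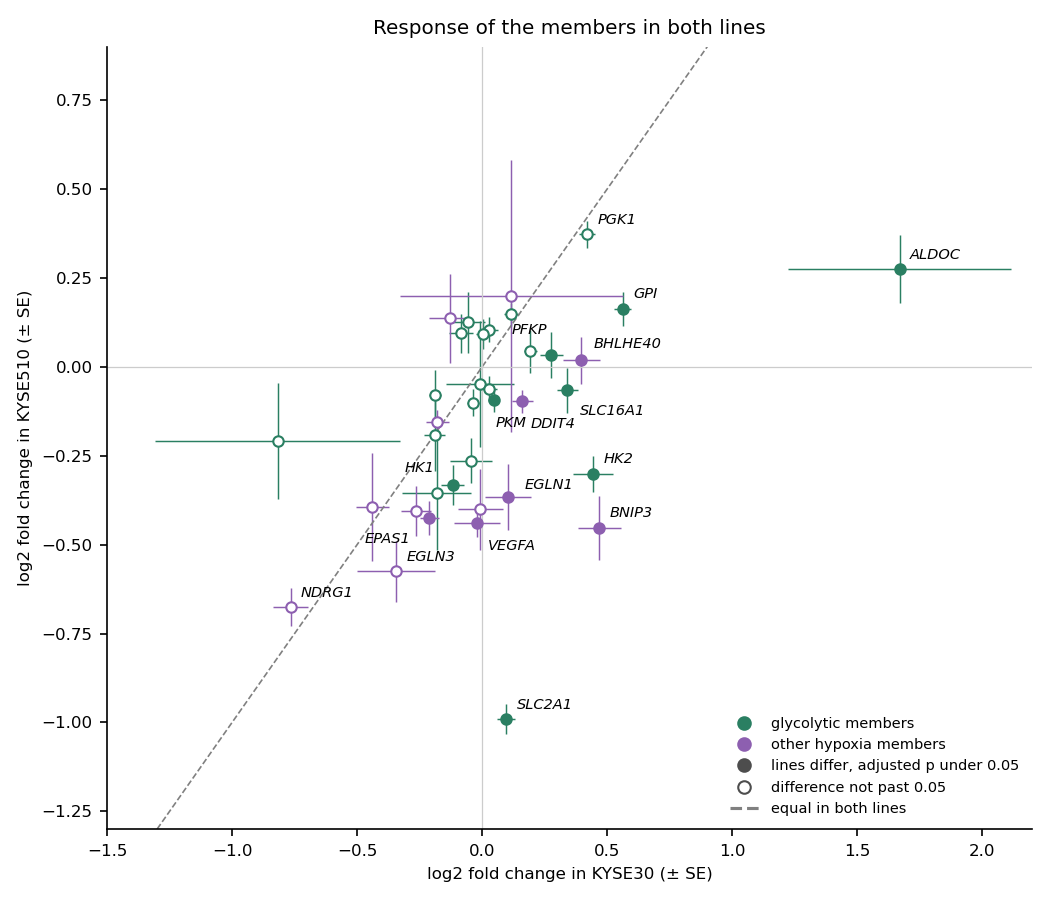
Log2 fold change in KYSE30 (horizontal axis) against that in KYSE510 (vertical axis) with SE bars, for the 37 members tested in both lines. The 14 filled points differ between the lines and all lie below the dashed line of equal change, with SLC2A1 at 0.10 and -0.99.

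The members span a wide range of levels. Per kilobase of annotated exon, the mean normalized count in KYSE510 was 37081 for GAPDH, 12916 for ENO1, 9891 for DDIT4 and 7050.4 for ALDOA, and in KYSE30 it was 23256 for GAPDH, 7202 for ENO1, 5681 for ALDOA and 3984 for TPI1. At the low end in KYSE30 stood ENO2 at 6.51, ALDOC at 12.5 and ANKRD37 at 13.2. The tables were normalized separately, so that levels of the 2 lines are set side by side as a description only. ALDOC had a mean of 36.6 in KYSE30 and 1693 in KYSE510, ENO2 27.9 and 434, VEGFA 949 and 8579.7, HK2 933 and 5644, and EGLN3 234 and 1416. In the other direction stood SLC16A3 with 10117 and 1063, P4HA2 with 1364 and 451, and SLC2A3 with 106 and 1.73.

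**Figure D4:**
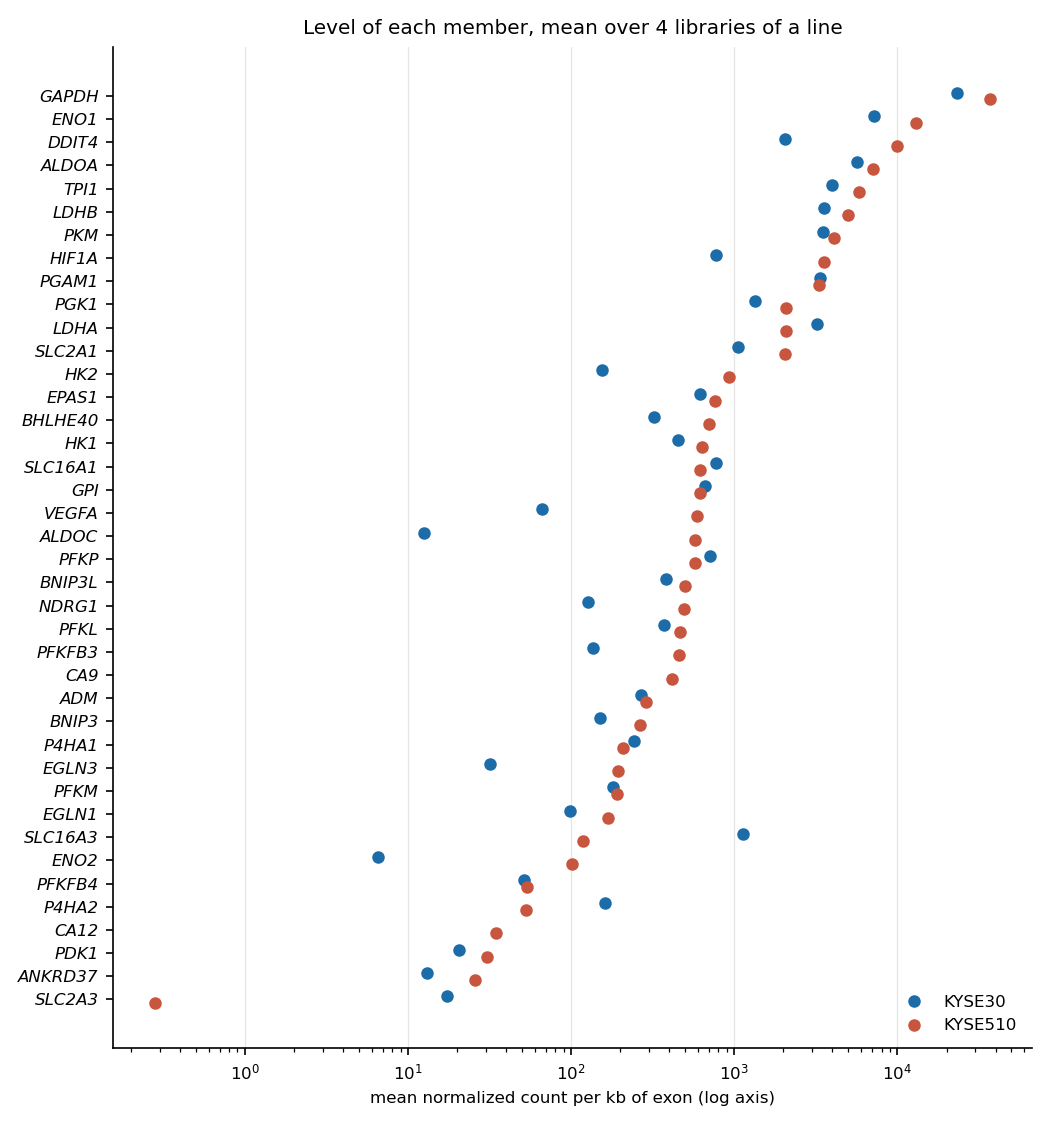
Mean normalized count per kilobase of exon for each member on a log axis, in KYSE30 and KYSE510, each table normalized on its own. GAPDH lies highest in both lines, and ALDOC at 12.5 and 578 is among the members that lie furthest apart.

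Neighboring pathways were read from further lists, whose counts stand beside 13.9% of all tested genes higher and 15.7% lower in KYSE30, and 7.89% and 10.8% in KYSE510. The pentose phosphate genes, which draw off glucose 6-phosphate to make NADPH and ribose, had 3 of 7 higher (42.9%) and 1 lower (14.3%) in KYSE30, and 1 higher (14.3%) and 2 lower (28.6%) in KYSE510, with medians of 0.10 and -0.08. PGD, phosphogluconate dehydrogenase, rose by 0.52 (SE 0.04, adjusted p = 1.81e-35) in KYSE30 and fell by 0.13 (SE 0.04, adjusted p = 0.00587) in KYSE510, and TALDO1 fell by 0.21 and 0.23. Of 6 glycogen genes, 2 rose (33.3%) and 3 fell (50.0%) in KYSE30, and 1 rose and 1 fell in KYSE510 (16.7% each, medians -0.05 and -0.08). PYGL, a glycogen phosphorylase, rose by 0.37 (adjusted p = 6.62e-13) and 0.13 (adjusted p = 0.0172), its paralog PYGB fell by 0.25 in KYSE30 (adjusted p = 3.68e-09), and PGM1 rose by 0.27 there (adjusted p = 8.64e-06).

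Of 11 genes of pyruvate transport into the mitochondrion and of pyruvate dehydrogenase and its control, 3 rose (27.3%) and 2 fell (18.2%) in KYSE30. In KYSE510 1 of 10 rose and 0 fell, the former near the 7.89% of all genes. There 0 were lower at an unadjusted p under 0.05 and 1 by limma. The medians were 0.11 in KYSE30 and 0.09 in KYSE510. DLD and PDHA1, subunits of the pyruvate dehydrogenase complex, rose in KYSE30 by 0.44 (adjusted p = 1.44e-07) and 0.38 (adjusted p = 3.24e-05), and the inhibitory kinase PDK2 fell by 0.41 (adjusted p = 5.63e-07). Among further glycolysis genes, 3 of 9 rose (33.3%) and 2 fell (22.2%) in KYSE30, and 1 of 12 rose and 1 fell in KYSE510 (8.33% each, near the shares of all genes, medians 0.09 and 0.06). BSG, the chaperone of the lactate carriers, rose by 0.09 in KYSE30 (adjusted p = 0.0283), less than the reference median of 0.12, and in KYSE510 by 0.30 (adjusted p = 1.74e-17), PGM2 rose by 0.36 in KYSE30 (adjusted p = 0.000151), the transporter SLC2A12 fell by 0.76 in KYSE30 (SE 0.15, adjusted p = 2.57e-06), and HKDC1 fell by 0.70 in KYSE510 (SE 0.26, adjusted p = 0.0417). The KYSE30 medians of the pentose phosphate, pyruvate and further glycolysis lists were above 0 but below that of the reference genes, so that their sign turns on that scale.

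Of further known HIF targets 29 were tested in KYSE30, where 2 rose (6.9%) and 5 fell (17.2%), beside 13.9% and 15.7% of all genes, so that the falls were near the background. Of 27 in KYSE510, 3 rose (11.1%) and 8 fell (29.6%), beside 7.89% and 10.8% of all genes, with medians of -0.08 and -0.16. LOXL2, a collagen crosslinking oxidase, fell by 0.60 in KYSE510 (SE 0.04, adjusted p = 3.36e-39), STC2, a secreted glycoprotein, fell there by 0.29 (SE 0.04, adjusted p = 5.32e-11), and PLOD2, a collagen lysyl hydroxylase, fell by 0.58 in KYSE30 (SE 0.08, adjusted p = 4.11e-11). VLDLR, a lipoprotein receptor, fell by 1.98 (SE 0.43, adjusted p = 4.13e-05) at a mean of only 44.4 in KYSE30 and by 0.39 (SE 0.15, adjusted p = 0.0435) in KYSE510. The HIF machinery had 6 of 11 genes lower (54.5%, beside 15.7% of all genes) and 0 higher in KYSE30, and 3 of 10 lower (30%, beside 10.8%) and 0 higher in KYSE510, with 0 higher also at an unadjusted p under 0.05 and by limma in both lines (medians -0.14 and -0.02). EGLN2, the remaining HIF hydroxylase, fell by 0.45 (SE 0.07, adjusted p = 3.48e-09) and 0.43 (SE 0.07, adjusted p = 1.36e-07). The coactivators CREBBP and EP300 fell by 0.32 and 0.22 in KYSE30 and by 0.47 and 0.29 in KYSE510.

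**Figure D5:**
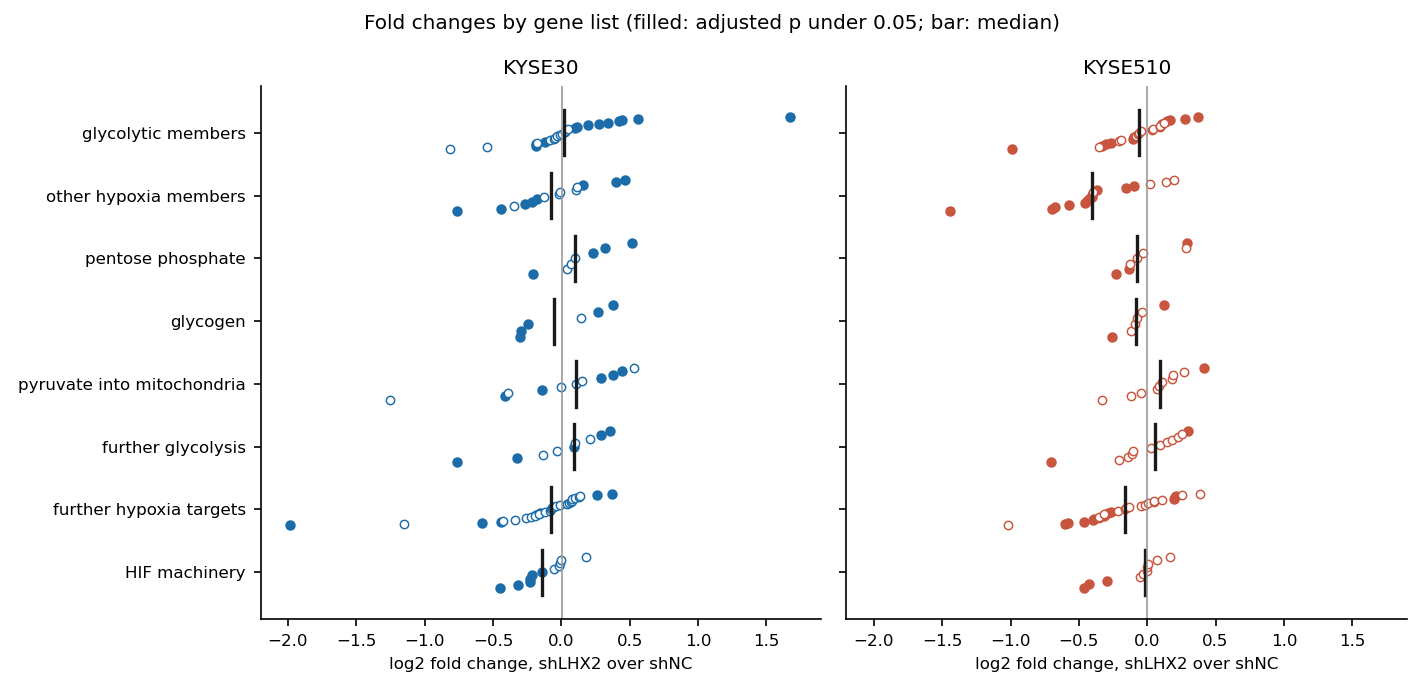
Log2 fold change of shLHX2 over shNC (horizontal axis) of every tested gene in each list, KYSE30 on the left and KYSE510 on the right. Filled points have an adjusted p under 0.05 and the bar is the median of the list, which for the other hypoxia members lies at -0.07 in KYSE30 and -0.40 in KYSE510.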

How the data were processed

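Total RNA of 8 libraries was extracted with Trizol and made into libraries with a TruSeq RNA kit, per the labels. The submitters' processing notes name hg38 and DESeq. Which aligner was used, and how reads were counted or strand was treated, is not stated in these sources. The authors deposited 1 DESeq2 table per line of shLHX2 over shNC, with 0 columns of values per library. Its signal column, as deposited, is each gene's mean normalized count in a line. Its effect sizes and their errors were deposited as log2 values. A score was deposited as well, the Wald statistic. The p-value that the authors deposited is that of a two-sided Wald test, and their adjusted p-value (Benjamini-Hochberg) covers 15923 genes in KYSE30 and 12676 in KYSE510. Since no table of counts was at hand, this test was taken as the main test in place of a fit of counts, and no value of it is compared with one of the paper.

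Whole reads per library were worked back as the only whole numbers that give the deposited mean, fold change and error of a gene. They were unique for 15867 genes in KYSE30 (99.65%) and for 12511 genes in KYSE510 (98.7%), including 38 and 34 tested members, and for SLC2A3, not tested in KYSE510, as well. GAPDH, DDIT4, PKM, ALDOA and ENO1 were not solved in KYSE510. No libraries of a group agreed within sampling noise (chi-square per degree of freedom from 2.00 to 2.66), and each was counted as 1 sample, which does not show that they came from separate cultures. Limma 3.58.1 in R 4.3.3 on log2 of normalized reads with a pseudocount of 1 was an alternative, with and without each library. The line difference was a two-sided z. The working back of reads with given size factors, limma and the line difference were tried on simulated data, the other steps were not. For the line difference the simulated noise was drawn from the deposited errors themselves. Python 3.11.15, numpy 2.4.6, scipy 1.17.1, pandas 2.3.3, numba 0.67.0 and matplotlib 3.10.9 were used.

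The members and lists were chosen with earlier results of these data known. All members are named. Of the other lists, genes past an adjusted p of 0.05 and 1.5-fold in either line and up to 3 per list with the smallest adjusted p are named, except for a gene not reported here. Gene positions, exons and pseudogenes are those of GENCODE release 29 on hg38, and promoter windows those of RefSeq on GRCh38.p14. Alternatives were a fold limit of 1.5, an adjustment over every gene with a p, a mean of at least 100, and subtraction of the median of 11 reference genes or of all tested genes.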

Additional observations from a re-analysis of the deposited data

Results flagged for a closer look

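For 14 members the fold change differed between the lines by the test of the difference itself, adjusted over all genes tested in both. In each case the value of KYSE510 less KYSE30 was negative. It was -1.40 for ALDOC, -1.09 for SLC2A1, -0.92 for BNIP3 and -0.74 for HK2. It was -0.47 for EGLN1, -0.42 for VEGFA, -0.41 for SLC16A1, -0.40 for GPI and -0.38 for BHLHE40. The smallest differences were -0.26 for DDIT4, -0.24 for PFKP, -0.21 for HK1, -0.21 for EPAS1 and -0.14 for PKM.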

How the results depend on the processing

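With a limit of 1.5-fold added, 2 members in place of 20 were called in KYSE30 and 4 in place of 23 in KYSE510. Less the median of the reference genes, which is 0.12 in KYSE30 and 0.05 in KYSE510, the glycolytic median became -0.11 in both lines (from 0.02 and -0.06), and that of the other hypoxia members in KYSE30 became -0.20 (from -0.07). In KYSE30 the same subtraction turned the fold changes of SLC2A1 to -0.029, TPI1 to -0.10, PGAM1 to -0.12, PKM to -0.079, LDHA to -0.10 and LDHB to -0.0081. These follow from the subtraction. With all libraries kept, the total counts of called members stayed within 1.5 times of the main count under every alternative other than the fold limit. They ran from 18 to 27 in KYSE30 and from 20 to 24 in KYSE510, where limma covered 34 members in place of 39. By direction, the lower calls in KYSE30 went from 8 to 18 relative to the reference genes, and the higher calls in KYSE510 from 5 to 2 by that subtraction. For the limma fits without 1 library only values are given, since 1 group then holds 1 library. The number of members differing between the lines was 13 or 14 under its 3 alternatives, but not always for the same members or in the same direction. Relative to the reference genes HK1, PFKP, EPAS1 and PKM dropped out, while PFKL, TPI1 and PGAM1 entered with a higher fold change in KYSE510. No paired analysis was possible because the tables carry no column per library and the replicate numbers could not be assigned to the reads worked back.

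With 2 libraries per group, each error rests on little replication. The depth limits ALDOC, ENO2 and ANKRD37 in KYSE30, with means under 40, and LHX2 in KYSE510. How reads of pseudogene copies and overlapping genes were counted is unknown. The knockdown libraries of KYSE510 are named by their label.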
